A study of Mus musculus with 4 samples.

Results

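A set of 5 genes of collagen processing and matrix remodelling (Mmp2, Adamts9, Pcolce2, Fbln1 and Col5a1) was examined in mouse aortic endothelial cells (MAECs), the cells that line the aorta. They were taken by gene symbol from a table of 398 probe sets that the authors deposited, and each of the 5 was joined by its probe set ID to a value table of 35557 transcript clusters (groups of probes along one gene, summarised as one value). All cells were of the C57BL/6J strain. The study compared wild type cells (2 arrays) with hcatTg cells (2 arrays). The hcatTg cells overexpress human catalase, which degrades hydrogen peroxide. The cells of both genotypes had reached 80% confluence, were deprived of serum for 12 h and received 10% fetal bovine serum for a further 12 h before RNA was taken. The sources used here do not state the promoter of the transgene, the sex or number of the animals, or whether each RNA sample had its own animal or culture. Because the labels describe independent RNA samples only, the spread between arrays may be technical. Differences in RNA per cell and differences in the mix of cells cannot be told apart in such bulk samples.

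The authors' table lists probe sets that differed at least 2-fold between the genotypes in one direction in both array pairs, one pair from a first time and one from a second. The 5 genes were therefore chosen by the same hcatTg against wild type contrast on the same 4 arrays, and their differences are given as a description with no test. An exact two-sided permutation test of 2 arrays against 2 could not go below p = 0.333. In the value table, 553 of the 35557 clusters (1.56%) differed at least 2-fold in one direction in both pairs, 134 (0.377%) higher and 419 (1.18%) lower in hcatTg. All 5 genes were among them, 1 higher and 4 lower, as the choice from that table nearly fixes. The smallest fold in the authors' deposited table was 2.0, and Col5a1 lay nearest to that limit among the 5 at 2.40 in its smaller pair, with 130 of the 398 probe sets closer to it.

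Matrix outside cells is built and trimmed by different proteins. Fibrillar collagens are secreted as procollagens, and BMP1-type proteinases cut off their C-terminal propeptides before fibrils form, a step that procollagen C-proteinase enhancers such as Pcolce2 speed up. Type V collagen, of which Col5a1 encodes a chain, starts and limits the width of type I collagen fibrils, and the glycoprotein fibulin-1 (Fbln1) binds fibronectin and basement membrane proteins in vessel walls. Secreted zinc proteinases then remodel this matrix: gelatinase A (Mmp2) cleaves denatured collagen and type IV collagen of basement membranes, and Adamts9 cleaves the proteoglycans versican and aggrecan.

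Array medians were 5.75 and 6.02 log2 units for wild type arrays 1 and 2, and 5.40 and 6.00 for hcatTg arrays 1 and 2. The median difference of all clusters was -0.37 in the first pair and 0.01 in the second, so first-pair differences below stand on a downward shift of all clusters. Sex-linked genes also separated the genotypes: Xist, the RNA that silences an X chromosome in female cells, lay at 4.71 and 4.66 in wild type cells and 10.33 and 11.45 in hcatTg cells, and all 4 Y-linked genes on the list (Ddx3y, Eif2s3y, Uty and Kdm5d) were lower in hcatTg in both pairs. Genotype and this sex-linked difference cannot be told apart for any gene given here. Of the marker lists, 2 of 16 endothelial markers were in the authors' table, Kdr with a mean difference of 2.31 and Eng with -1.31. The VEGF receptor gene Kdr lay below the array medians in wild type, at 5.63 and 4.67, and at 6.68 and 8.24 in hcatTg, while the TGF-beta co-receptor gene Eng was at 9.57 and 10.15 against 8.40 and 8.71. The 4 of 10 smooth muscle markers found there ranged from 5.97 to 9.65 in wild type and from 4.47 to 7.46 in hcatTg. All were lower in both pairs (mean differences of -2.92 for Rgs5 and -2.39 for Cnn1). In the table as a whole 305 of the 398 probe sets were lower, so a lower direction was the common one there. The 2 of 12 fibroblast markers were lower too (Tcf21 -3.58, Pdgfrb -1.41). Of 10 mesothelial and epithelial markers 2 were higher and 2 lower (Upk1b 2.76, Upk3b -2.68). Upk1b lay at 6.88 and 5.89 in wild type and 9.62 and 8.68 in hcatTg. Upk3b lay at 10.23 and 10.65 in wild type and 7.69 and 7.83 in hcatTg. Of 10 leukocyte markers 1 was higher and 2 lower (Cd53 2.46, Lcp1 -2.33). The part of these markers in the differences of the 5 matrix genes was not tested. The other markers are not named in the files, so Kdr and Eng were the only endothelial markers that could be read. In wild type cells Pdgfrb, Tcf21 and Upk3b had higher signal than Kdr. These values do not settle the identity of the cells.

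Mmp2 was the one gene of the 5 with higher signal in hcatTg cells. Its log2 signal was 6.97 and 8.22 on wild type arrays 1 and 2, and 10.11 and 11.09 on hcatTg arrays 1 and 2. Both hcatTg arrays lay above both wild type arrays, with a gap of 1.89 log2 units between the nearest arrays. Mmp2 was 8.81-fold higher in the first pair and 7.35-fold higher in the second, a mean difference of 3.01 log2 units between 10.60 ± 0.697 in hcatTg and 7.59 ± 0.882 in wild type (SD, n = 2 arrays each). Its place among all clusters moved from the 67.8th and 74.6th percentiles on the wild type arrays to the 95.2nd and 95.5th on the hcatTg arrays. It ranked 12th by size among the 93 higher probe sets of the table.

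Adamts9, the other proteinase gene, had the opposite direction. It lay at 7.04 and 8.62 in wild type cells and 3.94 and 4.53 in hcatTg cells. The groups were 2.51 apart at their nearest arrays, and the wild type arrays differed from each other by 1.58. Adamts9 was 8.56-fold lower in hcatTg in the first pair and 17.0-fold lower in the second, with means of 7.83 ± 1.11 for wild type and 4.24 ± 0.416 for hcatTg cells (SD, n = 2) and a mean difference of -3.59. On the hcatTg arrays it lay at the 20.2nd and 23.2nd percentiles of all clusters. The Y-linked genes lay as low on hcatTg arrays 1 and 2: Ddx3y at 3.85 and 4.79, Eif2s3y at 3.57 and 3.69. Uty was at 3.82 and 3.86, and Kdm5d at 4.39 and 4.36. Background signal was not analysed here, so the low Adamts9 values, and the fold computed from them, hold for the deposited values only. Whether a floor limits that fold was not tested.

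Subtracting one gene's difference from another's within the same arrays removes any shift that is common to an array. By that measure, the differences of the 2 proteinase genes lay 6.24 log2 units apart in the first pair and 6.96 in the second. Both directions also held after each normalization given below.

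Pcolce2 had the largest difference of the 5 genes. Its signal was 9.67 and 9.39 on the wild type arrays, and 4.40 and 4.78 on the hcatTg arrays. The replicate arrays of each genotype lay close together, and the groups were 4.61 apart at their nearest arrays. It was 38.6-fold lower in hcatTg in the first pair and 24.5-fold lower in the second, with means of 9.53 ± 0.198 for wild type and 4.59 ± 0.267 for hcatTg cells (SD, n = 2) and a mean difference of -4.94. Among all clusters it went from the 92.7th and 86.1st percentiles on the wild type arrays to the 29.7th and 27.8th on the hcatTg arrays. It ranked 2nd by size among the 305 lower probe sets of the table, after the Y-linked gene Ddx3y (-5.34), and 2nd among all clusters with a lower mean in hcatTg. The hcatTg signals of Pcolce2 lay near the highest Y-linked ones, 4.39 on array 1 (Kdm5d) and 4.79 on array 2 (Ddx3y). As for Adamts9, they are not shown to be above background, so these folds and ranks hold for the deposited values only. Pcolce2 was also the one gene of the 5 whose wild type signal was lower on array 2 than on array 1, by a difference of -0.28, while the wild type signals of the other 4 were higher on array 2 by 1.02 to 2.26.

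**Figure D1:**
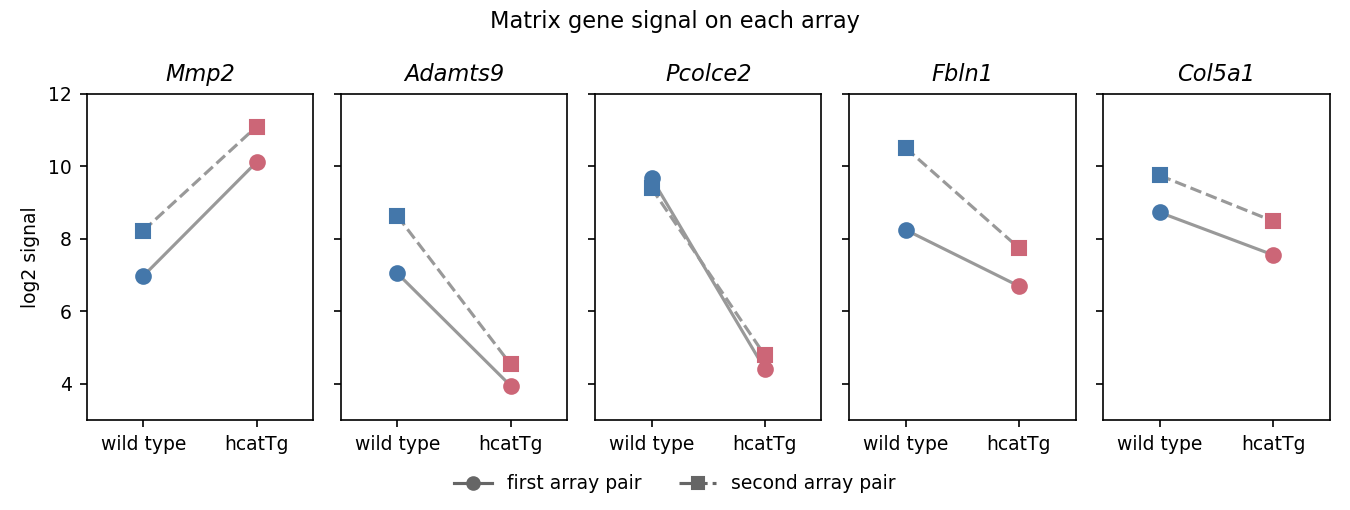
Log2 signal of each of the 5 genes (vertical axis) on the 2 wild type and 2 hcatTg arrays, with lines joining the arrays of one pair. Mmp2 goes up from wild type to hcatTg in both pairs and the other genes go down, Pcolce2 from 9.67 and 9.39 to 4.40 and 4.78.

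Fbln1, the fibulin-1 gene, lay at 8.24 and 10.50 in wild type cells and 6.69 and 7.74 in hcatTg cells. The groups did not overlap, but their nearest arrays were only 0.50 apart and the wild type arrays differed by 2.26, more than the mean difference of -2.15 between the genotypes. It was 2.92-fold lower in hcatTg in the first pair and 6.77-fold lower in the second, with means of 9.37 ± 1.60 for wild type and 7.22 ± 0.743 for hcatTg cells (SD, n = 2). The mean difference was -1.02 without wild type array 2 and -3.28 without wild type array 1. Leaving out 1 array breaks the array pairs, whose own differences were -1.55 and -2.76. On the hcatTg arrays Fbln1 stayed in the upper part of all clusters, at the 67.7th and 69.8th percentiles.

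Col5a1, which encodes the alpha 1 chain of type V collagen, had the smallest difference. Its signal was 8.72 and 9.74 on the wild type arrays and 7.55 and 8.48 on the hcatTg arrays. The lower wild type array and the higher hcatTg array were 0.24 apart. It was 2.24-fold lower in the first pair and 2.40-fold lower in the second, with means of 9.23 ± 0.722 for wild type and 8.01 ± 0.655 for hcatTg cells (SD, n = 2) and a mean difference of -1.21. Without wild type array 2 that difference was -0.70, and without hcatTg array 1 it was -0.75. These values break the array pairs, whose own differences were -1.17 and -1.26. It ranked 247th by size among the 305 lower probe sets, and on the hcatTg arrays it lay at the 77.4th percentile of all clusters on both. Groups that do not overlap, as in all 5 genes, were found in 20.3% of all clusters, in 17.8% with hcatTg lower and in 2.53% with hcatTg higher.

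Because 4 of the 5 genes were lower together, the 250 bases before their annotated starts were read from the RefSeq promoter table (build GRCm38.p6). It matched these 4, Fbln1 with 2 starts whose windows overlap. It held no entry for Mmp2, so the lower genes were not compared with the higher one. The windows of Pcolce2 and Adamts9, the largest differences, are shown 5′ to 3′ in the direction of transcription. Capitals mark the GC box GGGCGG on either strand. The first lies at chr9:95637378-95637627 on the plus strand and the second at chr6:92943535-92943784 on the minus strand.
Pcolce2: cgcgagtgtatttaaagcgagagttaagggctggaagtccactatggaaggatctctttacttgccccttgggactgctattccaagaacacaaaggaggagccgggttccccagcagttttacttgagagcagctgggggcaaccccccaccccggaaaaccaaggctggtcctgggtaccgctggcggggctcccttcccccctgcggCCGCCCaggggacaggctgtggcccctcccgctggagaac
Adamts9: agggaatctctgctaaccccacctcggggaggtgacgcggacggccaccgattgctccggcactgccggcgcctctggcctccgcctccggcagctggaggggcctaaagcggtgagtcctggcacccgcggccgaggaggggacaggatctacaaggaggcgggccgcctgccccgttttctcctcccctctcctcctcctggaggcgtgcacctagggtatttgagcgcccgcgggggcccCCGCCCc
A GC box was present in the windows of Pcolce2 (1), Adamts9 (1) and Col5a1 (2) and in 1 of the 2 windows of Fbln1, and in 32.7% of all 32851 windows of that length. The TATA box core TATAAA, the CCAAT box CCAAT, the AP-1 site TGANTCA and the antioxidant response element core TGANNNNGC, searched on both strands, were in none of the 5 windows, and in 12.4%, 33.8%, 6.75% and 35.2% of all windows. The E-box CANNTG was found in the windows of Pcolce2, Adamts9 and Fbln1 and not in that of Col5a1, and in 66.2% of all. G and C made up 76.4% of the bases for Col5a1, 71.2% for Adamts9, 61.2% for Pcolce2 and 46.4% and 62.4% for the starts of Fbln1, with a median of 52.4% over all windows. These matches describe the letters of the windows only.

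The 2 pairs gave differences of unequal size for some of the genes. The second-pair difference minus the first was -1.21 for Fbln1, -0.99 for Adamts9, 0.66 for Pcolce2, -0.26 for Mmp2 and -0.09 for Col5a1. The median size of that gap was 0.42 over all clusters and 0.39 over the 398 probe sets of the table. Fbln1, Adamts9 and Pcolce2 thus lay above both medians and Mmp2 and Col5a1 below them. With 1 array of each genotype per pair, the difference between the pairs was not tested.

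**Figure D2:**
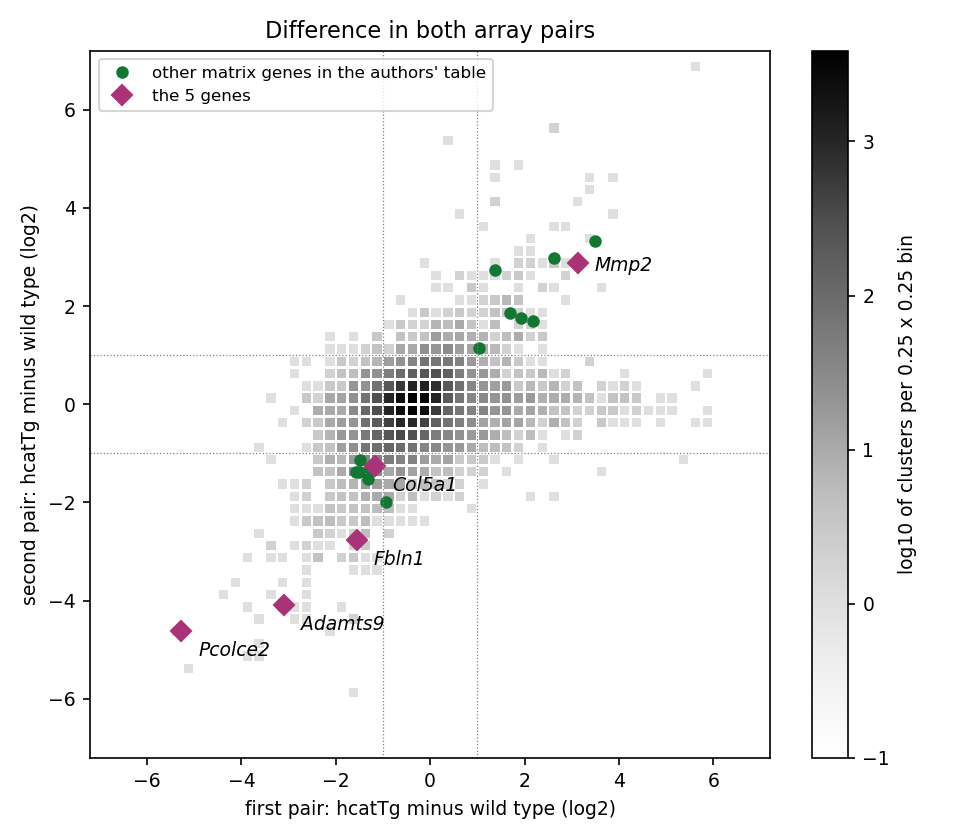
Difference of hcatTg minus wild type in the first pair (horizontal axis, log2) against the second pair (vertical axis, log2). Grey squares hold counts of all 35557 clusters, green points the other matrix genes of the authors' table, purple diamonds the 5 genes, and dotted lines mark 2-fold; Pcolce2 lies far to the lower left at -5.27 and -4.61.

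The column heads of the authors' deposited table name the robust multi-array average (RMA) for its first-pair signals. These differ from the value table: over the 398 probe sets they were higher by a median of 0.80 for wild type array 1 and 0.67 for hcatTg array 1. In the authors' deposited table the log2 ratio of the first pair was 3.06 for Mmp2, -3.07 for Adamts9, -5.11 for Pcolce2, -1.68 for Fbln1 and -1.30 for Col5a1. The second-pair folds of the authors' deposited table equal those of the value table to within 9e-05 log2 units. Bringing the 4 arrays to one median or one distribution moved the lower genes towards 0 and Mmp2 away from it. After median centring the mean differences were 3.19 for Mmp2, -3.41 for Adamts9, -4.76 for Pcolce2, -1.97 for Fbln1 and -1.03 for Col5a1, and after quantile normalization 3.13, -3.39, -4.78, -2.03 and -1.10 in the same order. All 5 kept their direction in both pairs and their separate groups under both. Of the 38 genes of the table on any list used here, the 5 included, 35 had separate groups after median centring. After quantile normalization 37 did, so separate groups are not particular to the 5. The share of all clusters under each normalization is not given here. Col5a1 no longer differed 2-fold in the first pair, at -0.82 after median centring and -0.95 after quantile normalization, so 4 of the 5 then met the 2-fold limit in both pairs. Over all clusters that limit was then met by 445 and 463, of which 40.0% and 39.1% were higher in hcatTg, against 24.2% on the deposited values.

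**Figure D3:**
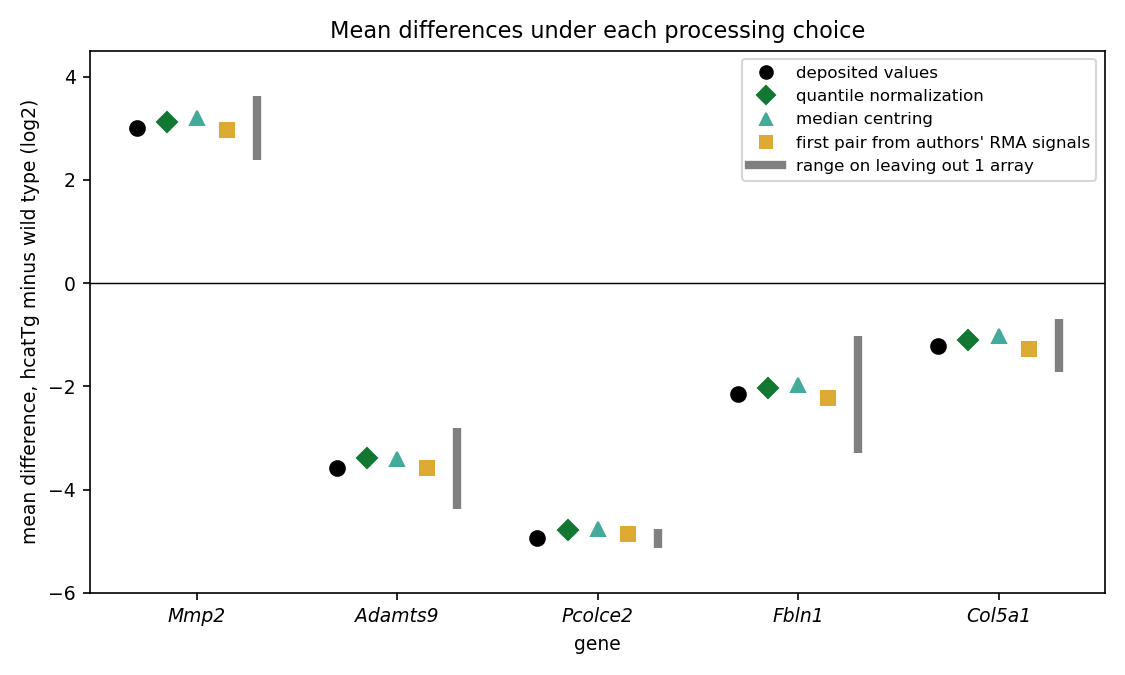
Mean difference of hcatTg minus wild type (vertical axis, log2) for each gene on the deposited values, after quantile normalization, after median centring and with the first pair taken from the authors' RMA signals; grey bars span the values on leaving out 1 array. Pcolce2 has the narrowest bar, from -5.13 to -4.75, and Fbln1 the widest, from -3.28 to -1.02.

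Neighbouring pathway genes were counted on 8 matrix lists with 156 genes in all, of which 18 were in the authors' table. Beside the 5 genes these were 13, of which 7 were higher and 6 lower in hcatTg, in a table with 93 higher and 305 lower probe sets. That table was itself selected on the same arrays, so these counts give no independent evidence of direction, and genes it does not name were not analysed here. Fitted across all clusters, limma called 3 of 35557 (0.00844%) at an adjusted p below 0.05, and 0 of the 13. An unadjusted p below 0.05 was found for 9 of the 13, beside 300 of the 398 probe sets of the table and 643 of all clusters (1.81%). That count of 3 was 103 and 192 without wild type arrays 1 and 2 and 0 without either hcatTg array. With the array pair as a block, limma called 1161 clusters (3.27%). It called all 13, 7 higher and 6 lower, beside 378 of the 398 probe sets of the table. Each cluster then has 1 residual degree of freedom. Over the listed genes the adjusted p of that fit fell as the mean difference grew in size, whatever the gap between the pairs. The choice at 2-fold in both pairs therefore nearly fixed these calls, which are no further evidence for the 13. With median centring added to the block, a setting chosen after seeing the data, limma called 24 clusters (0.0675%), 19 of the 398 and 2 of the 13 (Thbs2 and Ogn). The median of the mean differences was 1.09 over the 13, -1.36 over the 398 and -0.18 over all clusters.

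Of the 20 genes on the list of ADAMTS and ADAMTS-like genes outside procollagen processing, 5 were in the table, Adamts9 among them. All 5 were lower in hcatTg in both pairs, in a table where 305 of the 398 probe sets were lower. Adamts5, an aggrecan-cleaving proteinase gene, lay at 8.60 and 10.18 in wild type cells and 7.09 and 8.80 in hcatTg cells, so its groups overlapped. Adamts1, a versican-cleaving proteinase gene, at 8.01 and 9.38 in wild type and 6.73 and 8.09 in hcatTg, overlapped as well. The differences of Adamts12 (-1.47), Adamts5 (-1.45), Adamtsl4 (-1.31) and Adamts1 (-1.29) were each under 1.5 log2 units in size, against -3.59 for Adamts9. Adamts3, a procollagen N-proteinase gene counted with procollagen processing, went the other way. It lay at 5.55 and 5.88 in wild type cells and 7.47 and 7.63 in hcatTg cells, a mean difference of 1.84. Both genes of procollagen processing in the table therefore had separate groups, and they differed in direction: Pcolce2, which acts at the C-terminal propeptide, was lower and Adamts3, which cuts at the N-terminal one, higher.

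Mmp8, the neutrophil collagenase gene and the only other matrix metalloproteinase in the table, lay at 4.66 and 6.19 in wild type cells and 3.72 and 4.20 in hcatTg cells. Its first-pair difference in the value table was -0.94, below 2-fold. Its hcatTg signals lay below the lower quartiles of those arrays (4.17 and 4.63) and are not shown to be above background. None of the 5 metalloproteinase inhibitor genes (Timp1 to Timp4 and Reck) was in the table. Among collagens, Col5a1 was joined by Col4a6, a basement membrane collagen gene, with overlapping groups at 6.99 and 9.01 in wild type and 5.68 and 7.49 in hcatTg. No other gene of the 11 fibrillar collagens was named there.

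Of the 4 fibulin and elastic fibre genes in the table, Fbln1 was lower in hcatTg and the other 3 were higher. Efemp1, which encodes fibulin-3, lay at 8.80 and 10.08 in wild type cells and 10.98 and 11.78 in hcatTg cells, a mean difference of 1.94. Emilin2, an elastin microfibril interface gene, differed by 2.05, and Mfap5, a microfibril glycoprotein gene, by 1.09 with overlapping groups. The 3 proteoglycan and glycoprotein genes were higher too. Thbs2, which encodes the matricellular protein thrombospondin-2, lay at 8.44 and 10.01 in wild type and 11.92 and 13.33 in hcatTg. Ogn, a small leucine-rich proteoglycan gene, differed by 2.80 and Lama2, a laminin chain gene, by 1.78. All 13 kept their direction in both pairs after median centring and after quantile normalization. The overlaps depended on scale: 9 of the 13 had separate groups on the deposited values, against 20.3% of all clusters. This number was 11 after median centring, where Col4a6 and Mfap5 still overlapped, and 12 after quantile normalization, where Mfap5 did. The share of all clusters after each normalization is not given here. Of the 38 genes of the table on any list, 33 had separate groups on the deposited values, 35 after median centring and 37 after quantile normalization. Of the 13, the number at least 2-fold apart in both pairs was 12 on the deposited values, 10 after median centring and 12 after quantile normalization.

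**Figure D4:**
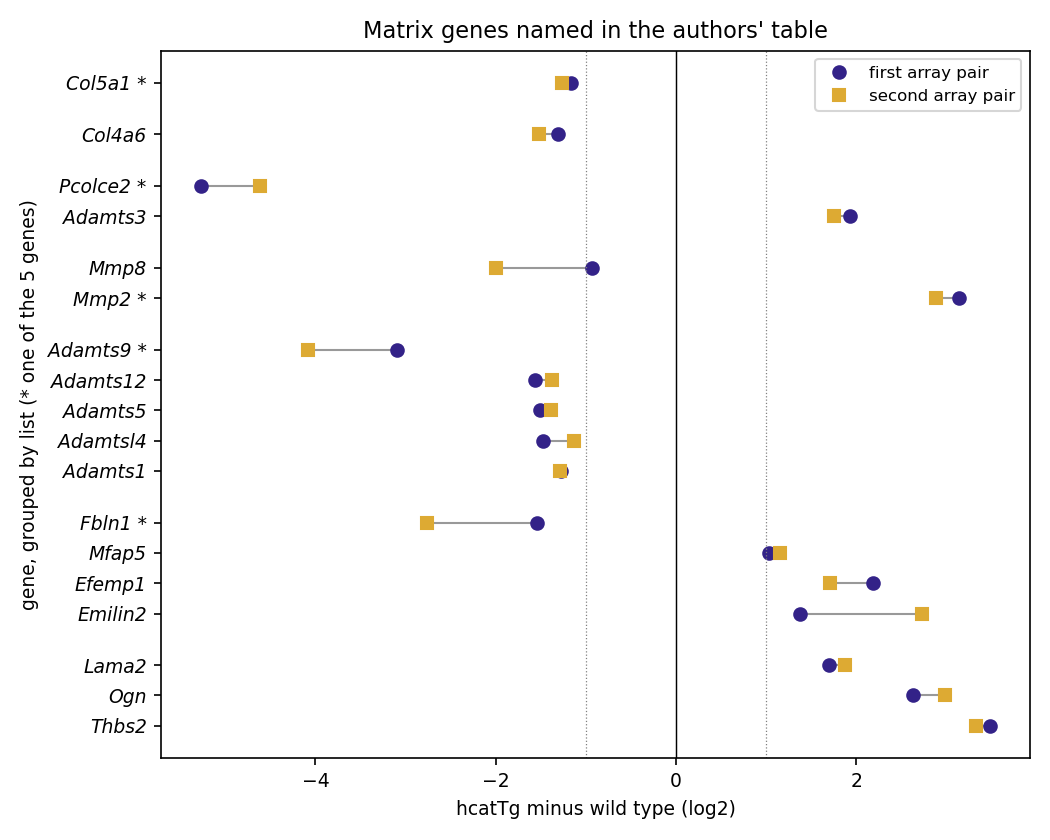
Difference of hcatTg minus wild type (horizontal axis, log2) in the first pair (circles) and the second pair (squares) for the 18 matrix genes named in the authors' table, grouped by list, with dotted lines at 2-fold. The list of other ADAMTS and ADAMTS-like genes lies left of 0 throughout, while Adamts3, grouped with procollagen processing, lies right of 0. The proteoglycan and glycoprotein group (Lama2, Ogn and Thbs2) lies right of 0.

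The profile of each gene over the 4 arrays was centred on its own mean and set against those of the other 397 named probe sets by the root mean square (RMS) distance in log2 units. This describes 4 arrays only, and the probe sets were all selected for the same contrast. Nearest to Mmp2 were Pde7b, a cAMP phosphodiesterase gene (0.15), Raet1d (0.19) and Thbs2 (0.27), against a median distance of 2.22. Nearest to Adamts9 were Tcf21, a mesodermal transcription factor gene (0.10), the imprinted gene Peg3 (0.14) and the Y-linked gene Uty (0.21), with a median of 1.18. Nearest to Pcolce2 were the teneurin gene Tenm3 (0.54) and the Y-linked genes Ddx3y (0.58) and Eif2s3y (0.70), with a median of 1.90. Nearest to Fbln1 were the smooth muscle actin gene Actg2 (0.11), the chloride channel gene Ano1 (0.12) and Tspan12 (0.14), with a median of 0.70. Nearest to Col5a1 were Rasa3 (0.02), Sash1 (0.04) and Ggt7 (0.05), with a median of 0.48. Among the 5 genes themselves the smallest distance was that of Fbln1 and Col5a1, at 0.64. It was above the median distance of Col5a1 to all the others (0.48) and below that of Fbln1 (0.70). Only Adamts9 and Pcolce2, at 0.94, were closer than the median distance of both genes (1.18 and 1.90). The farthest were Mmp2 and Pcolce2, at 4.02.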

How the data were processed

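Per the file headers, the authors' deposited table gives log2 RMA signals of the first array of each genotype, their log2 ratio and linear ratio, and signed fold changes (a score in which a negative value is wild type over hcatTg) at a first and a second time. Its column heads name the first arrays, and its second fold equals the difference of the second arrays to within 9e-05 log2 units, which gives the array pairs. The deposited value table holds log2 signals of Affymetrix Mouse Gene ST arrays. Per the submitters' processing notes, Affymetrix Expression Console was used. How the value table was summarised, and on which annotation and genome build, is not given there. Arrays have no read depth, and their number limits the precision.

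Names came from the authors' table, 395 of its 398 matched to RefSeq by accession (385) or symbol (10). Differences are hcatTg minus wild type. The limma test (version 3.58.1, R 4.3.3, lmFit and eBayes, Benjamini-Hochberg adjustment over all clusters, threshold 0.05) gave counts over all clusters, the table and the listed genes. It was also run on simulated data without an array-pair effect or a shift of whole arrays. That run therefore says nothing about the stability of the counts given here. Array pairs shared part of their spread: across clusters (not replicates), r was 0.689 between the deviations of paired arrays. Alternatives were the replicate block, normalization, an intensity trend, filters on clusters, a 4-fold limit and leaving out each array. The 5 genes and all lists were chosen with earlier results of these data known. Named genes were the 5, the other listed matrix genes of the table, the 3 nearest profiles each, up to 2 markers per list, and sex-linked genes. No named probe set was assigned to catalase (Cat), which was not analysed here.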

Additional observations from a re-analysis of the deposited data

How the results depend on the processing

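The mean differences of the 5 genes kept their direction under all 7 alternatives each (35 values in all). Under the 3 alternatives that keep all 4 arrays (15 values) they moved by less than the spread between arrays of a genotype. With 2 arrays per genotype, leaving out 1 array cannot move a value beyond that spread, so it is no test of stability. It gave -5.13 to -4.75 for Pcolce2, -4.38 to -2.80 for Adamts9, 2.38 to 3.63 for Mmp2, -3.28 to -1.02 for Fbln1 and -1.72 to -0.70 for Col5a1. The count of 3 clusters called by limma was not stable. It was 1161 with the replicate block, 42 with an intensity trend, 52 without the 6636 lowest-numbered clusters, and 0 after quantile normalization or median centring (limma gave 1253 and 975 with unadjusted p below 0.05). It was 24 with the replicate block and median centring, a setting chosen after seeing the data. It ranged from 0 to 192 when 1 array was left out, being 103 when wild type replicate 1 was dropped, 192 when wild type replicate 2 was, and 0 when hcatTg replicate 1 or 2 was (440 and 1340 with unadjusted p below 0.05). These fits take the spread of the remaining single array from the other genotype. The count of 553 clusters at 2-fold in both pairs was 90 at 4-fold, a stricter limit by construction. The causes of the limma changes were not tested. Signal over background was not analysed here, which limits the size of the Adamts9, Pcolce2 and Mmp8 differences.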

Other observations

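Integrin genes, which encode receptors for this matrix, were looked up in the authors' table after its values were seen, with no test. Of its 4 integrin subunit genes, 2 were higher and 2 lower in hcatTg, and Itga1 and Itga2, which encode collagen-binding alpha subunits, had opposite directions. Itga1 lay at 6.43 and 9.20 in wild type cells and 4.90 and 5.97 in hcatTg cells, a mean difference of -2.39. Its difference was -1.53 in the first pair and -3.24 in the second. Leaving out 1 array, which breaks the pairs, gave -0.999 without wild type array 2 and -3.77 without wild type array 1. Itga2 lay at 5.39 and 5.58 in wild type cells and 7.46 and 8.22 in hcatTg cells, a mean difference of 2.36. Itga3, a laminin receptor subunit gene, differed by 1.24, and Itgb8, which activates latent TGF-beta, by -1.65. The groups did not overlap for any of these 4, as in 20.3% of all clusters. The same held for 33 of the 38 genes of the table on any list, so this is near what the table's selection gives.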
